A study of Mus musculus with 18 samples.

Results

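Interferon-induced genes were chosen by the start of their symbol in the platform annotation, with starts that include Irf, Stat2, Ifih1, Ifit, Oas, Mx, Isg, Rsad2, Usp18, Gbp, Irgm, Igtp, Iigp and Ifi followed by a digit. The rule took 71 probesets with 1 symbol, and at 1 probeset per gene, the one with the highest mean over the 18 arrays, it gave 67 of 19937 genes. The choice used no comparison between groups. Among the 67, 4 genes (Irf2bp1, Irf2bp2, Irf2bpl and Isg20l2) only share the start of their name with interferon genes and are described apart. Another 7 probesets carry several symbols, among them those of Isg15, Igtp and Gbp2, and were left out.

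RNA came from the hypothalamus of male mice, 1 mouse per array with no pooling, of the Schlager hypertensive strain BPH/2J and its normotensive control BPN/3J. At ‘peak’ BP, in the active period, there were 6 BPH/2J and 6 BPN/3J mice aged 26 weeks. At ‘trough’ BP, in the inactive period, there were 3 mice of each strain, aged 18 weeks by the sample labels and 19 by the series text. Time of day and age changed together, so the 2 cannot be told apart in any ‘peak’ against ‘trough’ difference. The labels call the tissue whole hypothalamus, while the methods name the dissected paraventricular and dorsomedial nuclei. The labels name no treatment with an interferon and no infection.

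The strain tag of the 3 BPN/3J ‘trough’ mice reads BPH/2J, against their titles and their normotensive tag, and the titles were followed here. Of 462 probesets that differed between the strains at ‘peak’ BP, 434 (93.9%) had the same direction at ‘trough’ BP with the mice placed by title. The arrays of BPN/3J ‘peak’ mouse 11 and BPN/3J ‘trough’ mouse 1 stood apart, with mean correlations to the other arrays of 0.963 and 0.968, against 0.978 to 0.984 for the other arrays. Values are RMA signals on the log2 scale, so a difference of 1 is a 2-fold change. Every difference is given as BPH/2J minus BPN/3J or as ‘peak’ minus ‘trough’, with its SE from a limma model of all 4 groups. A gene was called at an adjusted p under 0.05 over all 34760 probesets.

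Interferons are secreted proteins that warn cells of virus infection. Type I interferons bind the receptor chains Ifnar1 and Ifnar2, and interferon gamma binds Ifngr1 and Ifngr2. Janus kinases on these receptors then activate STAT factors, which with Irf9 bind the interferon-stimulated response element, or alone the gamma-activated site, in the promoters of target genes. The products block virus replication (Ifit, Oas, Mx and Rsad2), attack the membranes of vacuoles that hold microbes (guanylate-binding proteins and immunity-related GTPases), sense DNA (the Ifi200 family) or stop virus entry (Ifitm3). In uninfected brain, microglia, endothelium and neurons keep a low tonic level of this programme.

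In these hypothalami the programme did not move as a block between the strains. At ‘peak’ BP 2 of the 67 genes were called, both higher in BPH/2J: Ifit3 and Oasl2. Of all 19937 genes, 1.38% were called in that comparison. At ‘trough’ BP 0 of 67 passed limma's test, against 0.567% of all genes. An unadjusted p under 0.05 was found for 7 of the 67 and for 11.8% of all genes. The median strain difference of the 67 was 0.05 on the log2 scale at ‘peak’ BP and -0.04 at ‘trough’ BP, and that of all genes was 0.01 at both times. When the strain difference was averaged over both times, 2 genes were called, Ifit3 higher and Gbp9 lower in BPH/2J, beside 1.93% of all genes.

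More of the genes differed between the times. In BPH/2J 3 of 67 were called: Ifit3b and Ifit3 rose at ‘peak’ BP and Irf2bpl fell. That is 4.48% of them, under the 10.2% of all genes called. In BPN/3J 13 of 67 were called (19.4%), with 28.7% called among all genes. Of the 13, Ifit2, Ifit3, Ifit3b, Gbp5 and Ifi208 were higher at ‘peak’ BP, and Irf2bpl, Ifi27l2b, Irf8, Ifitm5, Ifi44l, Irf7, Ifi213 and Oas3 were lower. The ‘peak’ and ‘trough’ mice of a strain did not overlap for 11 of the 67 genes in BPN/3J and 4 in BPH/2J. Such separation was not counted over all genes. Averaged over both strains, 6 genes were higher and 10 lower at ‘peak’ BP, a share of 23.9% where all genes had 37.5%. In each of the 3 time comparisons the share among the 67 was below that of the array as a whole. Of the 67, 31 were dim, under the 40th percentile of signal, and whether low signal lowered the share was not tested.

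**Figure D1:**
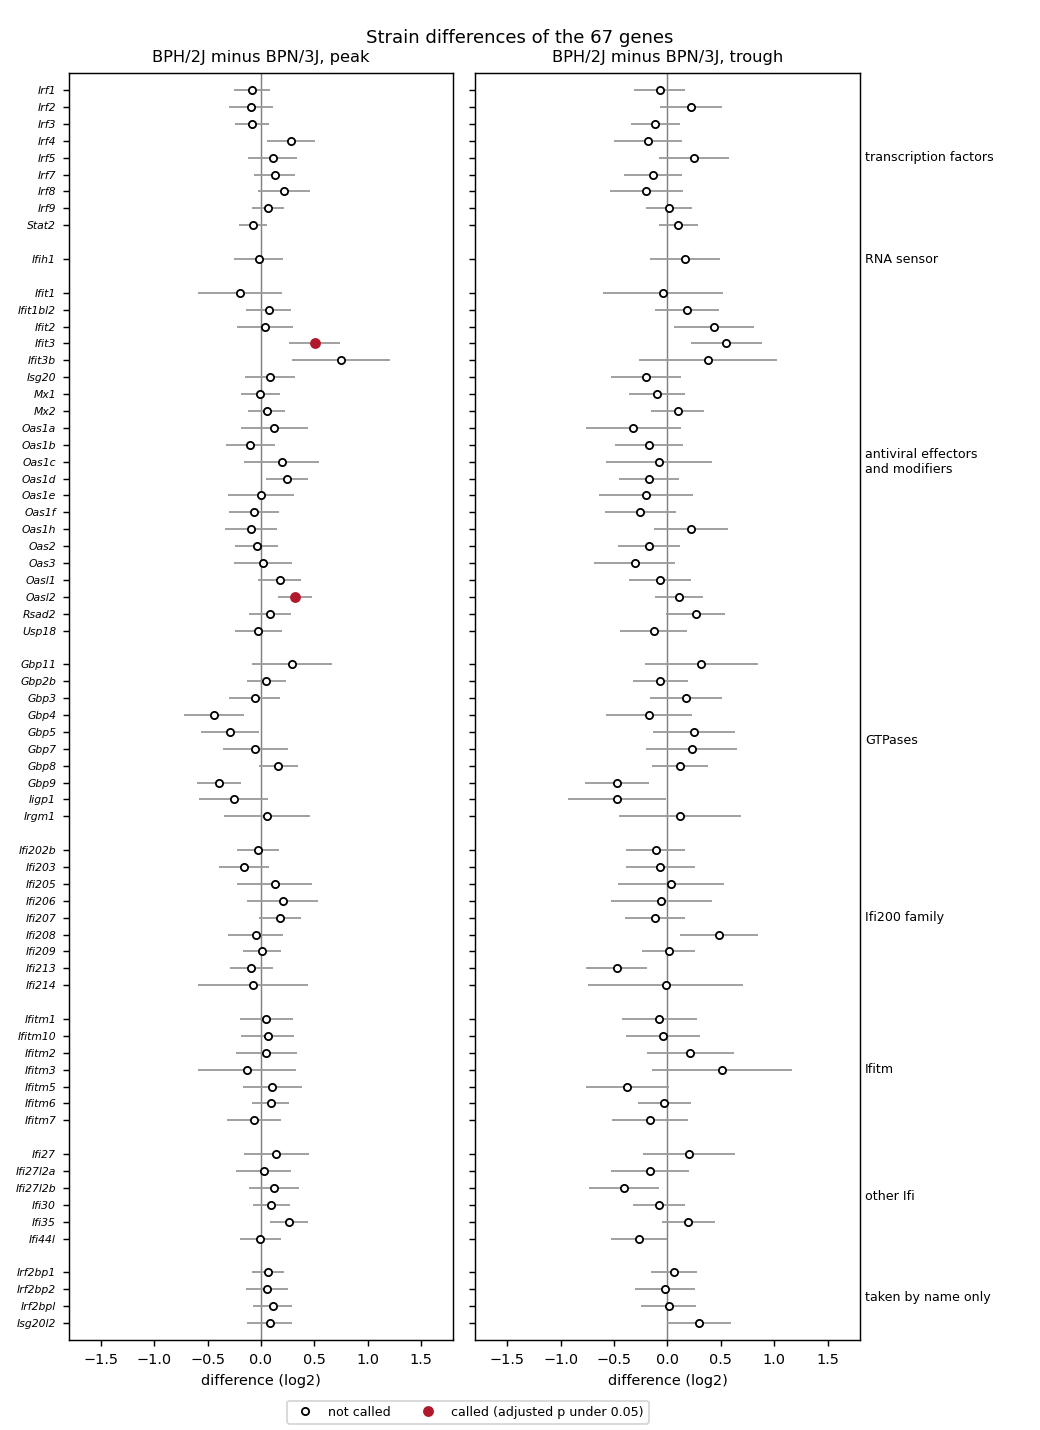
Strain difference (BPH/2J minus BPN/3J, log2, horizontal axis) of each of the 67 genes at ‘peak’ BP (left, 6 against 6 mice) and at ‘trough’ BP (right, 3 against 3 mice), grouped by role. Circles are limma estimates, lines their 95% intervals and filled circles the called genes, which are Ifit3 and Oasl2 at ‘peak’ BP and 0 of 67 at ‘trough’ BP.

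The Ifit proteins bind viral RNA and hold back its translation. The array measured 5 of them, which neighbour each other on chromosome 19 in the order Ifit2, Ifit3, Ifit3b, Ifit1bl2 and Ifit1 (GRCm38.p6), and they did not move alike. Ifit3 and Ifit3b changed with time in both strains, Ifit2 passed in BPN/3J, and Ifit1 and Ifit1bl2 passed in no comparison.

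Ifit3, a partner that stabilises Ifit1 on its RNA, was the member with the clearest strain difference. In BPH/2J it ran from 6.85 to 7.65 with a median of 7.19 at ‘peak’ BP, and in BPN/3J from 6.45 to 6.86 with a median of 6.68. At ‘trough’ BP its values were 6.62, 6.66 and 6.68 in BPH/2J and 6.17, 6.01 and 6.12 in BPN/3J. All 3 BPH/2J ‘trough’ mice lay above all 3 BPN/3J ‘trough’ mice. Such separation of 3 from 3 mice was seen for 19 of the 67 genes, of which 0 were called, and was not counted over all genes. At ‘peak’ BP the only overlap was BPH/2J mouse 9, at 6.85, just under BPN/3J mouse 10, at 6.86.

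The strain difference of Ifit3 was 0.50 (SE 0.11, 1.42-fold) at ‘peak’ BP with a limma adjusted p of 0.0307. At ‘trough’ BP it was 0.55 (SE 0.16), of like size, with an adjusted p of 0.201. The mean over both times was 0.53 (SE 0.10, adjusted p 0.00518), and that call held when each of the 18 arrays was left out in turn. The call at ‘peak’ BP alone held in 12 of the 18, and its largest adjusted p was 0.0765, without BPN/3J ‘peak’ mouse 8. Against time, Ifit3 rose at ‘peak’ BP by 0.52 (SE 0.14, adjusted p 0.0249) in BPH/2J and by 0.58 (SE 0.14, adjusted p 0.00787) in BPN/3J. The call in BPH/2J was lost without any 1 of its 3 ‘trough’ mice, with a largest adjusted p of 0.110 without mouse 1, and that in BPN/3J held throughout.

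Ifit3b, a close copy of Ifit3 next to it, changed most of the 67 with time. It had values of 5.15, 5.33 and 5.38 in BPH/2J and 4.96, 4.84 and 4.91 in BPN/3J at ‘trough’ BP. At ‘peak’ BP it ranged from 5.60 to 6.95 (median 6.60) in BPH/2J and from 5.10 to 6.27 (median 5.56) in BPN/3J, so in each strain every ‘peak’ mouse was above every ‘trough’ mouse. The rise was 1.15 (SE 0.27, 2.22-fold, adjusted p 0.0126) in BPH/2J and 0.78 (SE 0.27, adjusted p 0.0415) in BPN/3J, where it held in 10 of 18 fits with 1 array left out and reached an adjusted p of 0.119 without ‘trough’ mouse 3. The strain difference at ‘peak’ BP was 0.75 (SE 0.22) with an adjusted p of 0.129, and at ‘trough’ BP 0.38 (SE 0.31). Ifit3 and Ifit3b are near-identical in parts, and whether their probes can tell them apart was not tested.

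Ifit2, which is known to limit neurotropic viruses, had similar levels in both strains at ‘peak’ BP: 7.73 to 8.32 (median 8.09) in BPH/2J and 7.54 to 8.22 (median 8.12) in BPN/3J. At ‘trough’ BP it was at 7.62, 7.67 and 7.81 in BPH/2J and 7.05, 7.25 and 7.49 in BPN/3J. The BPN/3J mice were thus lower at ‘trough’ BP, with no overlap between the strains, as for 19 of the 67 genes. Ifit2 rose at ‘peak’ BP by 0.74 (SE 0.15, adjusted p 0.00384) in BPN/3J, and in BPH/2J the difference was 0.34 (SE 0.15, adjusted p 0.192). The difference between these 2 time effects was not called for any member. The strain difference was 0.04 (95% interval -0.23 to 0.30) at ‘peak’ BP and 0.44 (95% interval 0.06 to 0.81, adjusted p 0.423) at ‘trough’ BP.

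Ifit1, the RNA cap sensor of the family, had group means of 5.58 and 5.77 at ‘peak’ BP and 5.42 and 5.47 at ‘trough’ BP, in BPH/2J and BPN/3J. Its ‘peak’ mice spread from 4.86 to 6.13 and covered the whole ‘trough’ range of 5.26 to 5.60. In Ifit3, Ifit3b, Ifit2 and Ifit1 alike, BPH/2J ‘peak’ mice 8 and 9 lay at or near the bottom of their group, below mice 4 to 7.

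**Figure D2:**
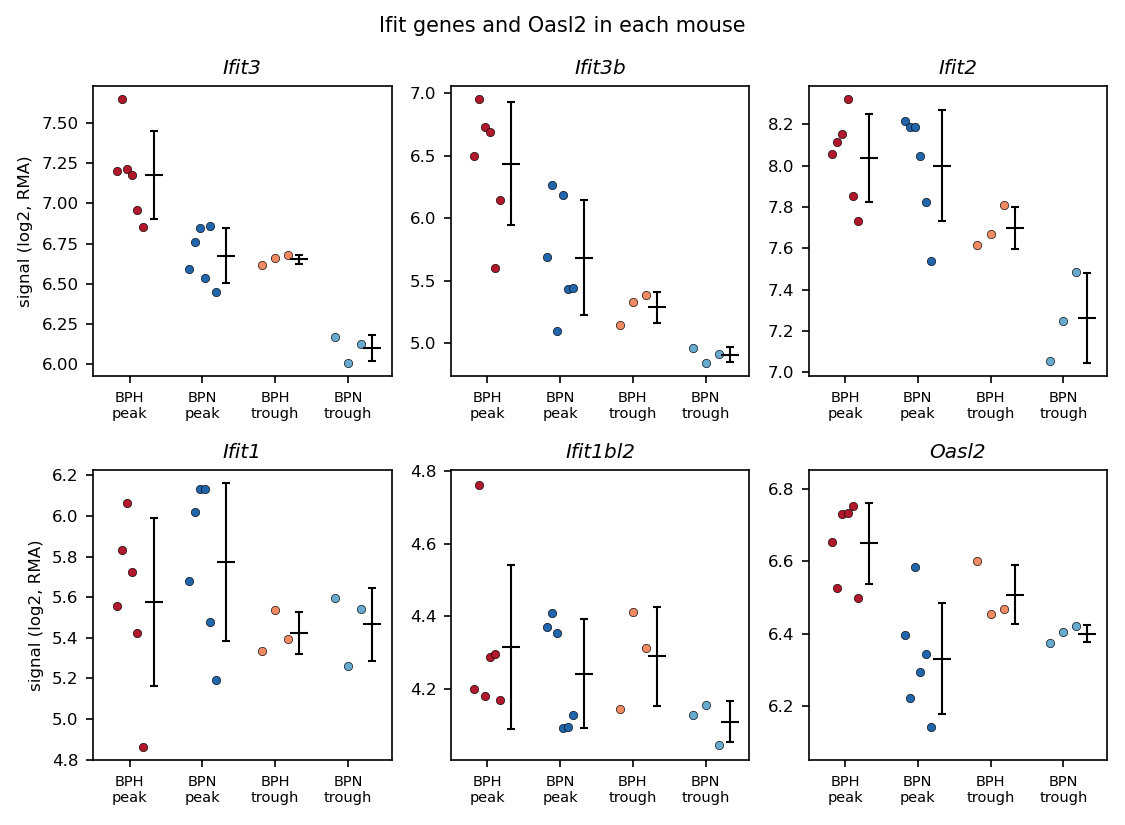
RMA signal (log2) of the 5 Ifit genes and Oasl2 in each mouse (points), with the group mean and SD (black bar) for 6, 6, 3 and 3 mice. The group mean of Ifit3 is higher in BPH/2J at both times, called at ‘peak’ BP only, and higher at ‘peak’ BP in both strains. Ifit3b is higher in every ‘peak’ mouse than in every ‘trough’ mouse of the same strain, and Ifit1 groups overlap.

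The promoters of these genes are shown because Ifit3 and Ifit3b moved together while Ifit2, in the same cluster, was called in BPN/3J and Ifit1 in no comparison. The windows are RefSeq's, run from 250 bases before to 50 after the start on build GRCm38.p6, plus strand, and are those of C57BL/6J, not of BPH/2J or BPN/3J. Capitals mark the core of the interferon-stimulated response element (GAAA, any 2 bases, GAAA, on either strand), and they are chr19:34583279-34583578 for Ifit3, chr19:34607707-34608006 for Ifit3b, chr19:34640639-34640938 for Ifit1 and chr19:34550444-34550743 for the first of 2 Ifit2 windows.
Ifit3: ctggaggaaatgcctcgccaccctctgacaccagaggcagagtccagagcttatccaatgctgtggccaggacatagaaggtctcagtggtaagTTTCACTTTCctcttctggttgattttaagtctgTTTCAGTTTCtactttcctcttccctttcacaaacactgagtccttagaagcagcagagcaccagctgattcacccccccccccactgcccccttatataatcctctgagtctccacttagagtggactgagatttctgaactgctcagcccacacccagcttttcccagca
Ifit3b: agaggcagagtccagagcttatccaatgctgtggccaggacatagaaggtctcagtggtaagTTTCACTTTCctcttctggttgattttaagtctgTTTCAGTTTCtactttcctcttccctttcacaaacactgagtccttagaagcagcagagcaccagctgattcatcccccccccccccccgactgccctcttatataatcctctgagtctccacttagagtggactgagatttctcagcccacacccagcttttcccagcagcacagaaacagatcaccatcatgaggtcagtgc
Ifit1: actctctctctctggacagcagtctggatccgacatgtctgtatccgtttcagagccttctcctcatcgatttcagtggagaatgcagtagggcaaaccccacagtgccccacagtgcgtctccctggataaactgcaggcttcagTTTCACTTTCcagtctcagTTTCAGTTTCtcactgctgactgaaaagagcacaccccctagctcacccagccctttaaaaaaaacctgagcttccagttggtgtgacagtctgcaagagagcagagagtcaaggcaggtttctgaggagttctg
Ifit2: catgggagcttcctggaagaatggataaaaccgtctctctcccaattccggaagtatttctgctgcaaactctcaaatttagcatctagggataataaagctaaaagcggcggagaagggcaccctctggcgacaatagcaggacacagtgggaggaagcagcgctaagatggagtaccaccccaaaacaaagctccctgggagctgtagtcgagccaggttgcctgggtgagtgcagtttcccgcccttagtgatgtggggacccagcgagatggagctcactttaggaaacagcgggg
The windows of Ifit3, Ifit3b and Ifit1 each held the same pair of matches on the opposite strand, TTTCACTTTC and then TTTCAGTTTC. The pair lay 156 to 113 bases before the start in Ifit3, 188 to 145 in Ifit3b and 104 to 76 in Ifit1. The Ifit3b window begins 32 bases into that of Ifit3, and over the stretch they share 259 of 274 aligned columns were identical (94.5%), with 1 mismatch and 14 gap columns. The best stretch shared by Ifit3 and Ifit1 had 57.3%. Neither Ifit2 window held the core, and the first held 1 gamma-activated site (TTCNNNGAA), TTCCTGGAA, 241 to 233 bases before the start. The pair of matches stood alike in 2 genes that were called with time and 1 that was not, and Ifit2, called with time in BPN/3J, lacked it. A link between the matches and the time differences was not tested.

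Over the 52 members with a RefSeq window, 25 (48.1%) held the response element core and 13 (25.0%) the gamma-activated site, and 5 held both, where matches may overlap. Among all 27025 genes with a window the shares were 3.99% and 9.55%. The core was found in 5 of 5 GTPases, 7 of 9 Ifi200 genes and 8 of 14 antiviral effectors, but in 2 of 9 transcription factors, 0 of 3 other Ifi genes and 0 of 4 genes taken by name only. A match is a run of letters and not a measured binding site.

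The Oas family is named for the 2'-5' oligoadenylate synthetases, enzymes that make the messenger that switches on RNase L. In all 11 genes with the family name were measured (Oas1 genes, Oas2, Oas3, Oasl1 and Oasl2), and enzyme activity was not. Oasl2, an OAS-like protein that carries ubiquitin-like domains, was the only one called between the strains. At ‘peak’ BP it ran from 6.50 to 6.75 (median 6.69) in BPH/2J and from 6.14 to 6.58 (median 6.32) in BPN/3J, and of the 6 BPN/3J mice only mouse 7 reached into the BPH/2J range. The difference was 0.32 (SE 0.08, 1.25-fold, adjusted p 0.0463) at ‘peak’ BP and 0.11 (SE 0.11, adjusted p 0.739) at ‘trough’ BP. The call is marginal, since it held in 2 of the 18 fits that each left out 1 array, with a largest adjusted p of 0.111.

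Oas3, the synthetase that responds best to long double-stranded RNA, went the other way in time. In BPN/3J it was at 6.13, 6.06 and 5.81 at ‘trough’ BP and at 5.20 to 5.73 (median 5.65) at ‘peak’ BP, without overlap. It fell by 0.46 (adjusted p 0.0404) in BPN/3J, and in BPH/2J the difference was -0.14 (SE 0.16). Without BPN/3J ‘trough’ mouse 1 the difference of Oas3 was -0.40 (adjusted p 0.167). Of the 21 antiviral effectors and modifiers 2 rose and 0 fell at ‘peak’ BP in BPH/2J, and 3 rose and 1 fell in BPN/3J. Of all genes 10.2% and 28.7% were called in these comparisons. The called Ifit genes and Oas3 thus moved in opposite directions within the role in BPN/3J.

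Other widely used markers of the interferon response passed no test. Usp18, which removes Isg15 from proteins, had group means from 5.51 to 5.64, and Rsad2 (viperin) from 5.22 to 5.48. The Mx GTPases were dim, with group means of 3.76 to 3.89 for Mx1 and 4.33 to 4.46 for Mx2. Oas1a lay between 5.73 and 6.05. None of these 5 genes was called in any of the 5 comparisons.

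The guanylate-binding proteins and immunity-related GTPases are induced mainly by interferon gamma, and 10 were measured. Gbp9 was called lower in BPH/2J only in the strain difference averaged over both times, which was added after seeing the data. It ran from 5.46 to 6.03 (median 5.64) in BPH/2J and from 5.79 to 6.26 (median 6.07) in BPN/3J at ‘peak’ BP. At ‘trough’ BP it was at 5.62, 5.59 and 5.74 in BPH/2J and 5.95, 6.19 and 6.22 in BPN/3J. The strains were thus apart at ‘trough’ BP, as for 19 of the 67 genes. At ‘peak’ BP the overlap came from BPH/2J mouse 6, at 6.03, and BPN/3J mouse 10, at 5.79.

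The strain difference of Gbp9 was -0.39 (SE 0.10, adjusted p 0.0665) at ‘peak’ BP and -0.47 (SE 0.14, adjusted p 0.221) at ‘trough’ BP. Neither passed alone, and the mean over both, -0.43 (SE 0.09), had an adjusted p of 0.00972, and held with each array left out in turn. Gbp9 neighbours Gbp8 and Gbp4 on chromosome 5, and 1 probeset there that lists 6 Gbp symbols was left out. Whether the Gbp9 probes match these near copies was not tested.

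Gbp5, a promoter of inflammasome assembly, was called with time. In BPN/3J it was at 4.61, 4.67 and 4.89 at ‘trough’ BP and from 4.84 to 5.65 (median 5.40) at ‘peak’ BP, with only mouse 11 as low as a ‘trough’ mouse. It rose by 0.59 (SE 0.16, adjusted p 0.0138), and without ‘trough’ mouse 1 the value was 0.54 (adjusted p 0.0726). In BPH/2J its group means were 4.97 at ‘trough’ BP and 5.02 at ‘peak’ BP.

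Irgm1, which guards autophagy, had group means of 6.26 and 6.14 at ‘trough’ BP and 6.78 and 6.72 at ‘peak’ BP, in BPH/2J and BPN/3J. Its difference was 0.52 (SE 0.23, adjusted p 0.193) in BPH/2J and 0.58 (SE 0.23, adjusted p 0.0757) in BPN/3J, and averaged over both strains 0.55 (adjusted p 0.0183). BPH/2J ‘peak’ mice 8 and 9, at 6.29 and 6.22, lay within the ‘trough’ range of 6.14 to 6.37 while mice 4 to 7 were at 6.70 to 7.21. Gbp3 and Iigp1 passed no comparison, with group means from 5.88 to 6.16 and from 3.46 to 4.13.

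The Ifi200 genes encode sensors and regulators that bind DNA, and the 9 measured members lie on chromosome 1. All 9 were dim, below the 40th percentile of signal. With time in BPN/3J, where 28.7% of all genes were called, 2 of the 9 were called. Ifi208 rose at ‘peak’ BP in BPN/3J by 0.44 (SE 0.15, adjusted p 0.0424). Its 3 BPN/3J ‘trough’ values were 3.24, 3.35 and 2.68, and without mouse 4, the lowest, the difference was 0.23 with an adjusted p of 0.246. Ifi213 fell by 0.37 (adjusted p 0.0316) in BPN/3J, from 4.58, 4.54 and 4.38 at ‘trough’ BP to 3.72 to 4.30 (median 4.20) at ‘peak’ BP. Its strain difference at ‘trough’ BP was -0.48 (SE 0.14, adjusted p 0.198), with the BPH/2J mice at 4.04, 3.91 and 4.12. Without BPN/3J ‘trough’ mouse 1 the time difference of Ifi213 was -0.33 (adjusted p 0.131). Ifi202b, whose level differs between many inbred strains, was at the low end of the array in all groups here, with means of 3.27 to 3.38.

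The Ifitm proteins sit in membranes and block virus fusion, except Ifitm5, which belongs to bone. Of 7 measured, Ifitm5 alone was called, with time in BPN/3J, where 28.7% of all genes were. In BPN/3J it was at 6.70, 6.09 and 6.13 at ‘trough’ BP and at 5.41 to 5.88 (median 5.58) at ‘peak’ BP, without overlap, and it fell by 0.68 (adjusted p 0.00742). Without ‘trough’ mouse 1, the highest, the difference was -0.48 (adjusted p 0.0672). In BPH/2J it was -0.20 (SE 0.16). Ifitm3, the antiviral member, varied widely within the ‘peak’ groups, with SDs of 0.39 and 0.52 in the ‘peak’ BPH/2J and BPN/3J mice. Its strain differences ran in opposite directions at the 2 times, with group means of 7.61 and 7.74 at ‘peak’ BP and 7.78 and 7.27 at ‘trough’ BP. The difference between them was -0.64 (SE 0.38, adjusted p 0.639), which is the one member past the study's threshold of a 1.5-fold adjusted difference, a rule with no test. As the study's list was chosen on these arrays, it is no independent evidence.

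Of the transcription factors that drive the programme, 9 were measured, with a median strain difference of 0.07 at ‘peak’ BP and -0.07 at ‘trough’ BP. Stat2 and Irf9, partners in the type I interferon complex, stayed within group means of 7.87 to 7.99 and 7.10 to 7.24. Irf1, the main factor downstream of interferon gamma, had means of 6.08 to 6.16. None of these 3 genes was called. Ifih1, the cytosolic RNA sensor MDA5, had means of 5.89 to 6.10 and was not called.

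Irf7, the amplifier of type I interferon production, and Irf8, which defines microglia and other myeloid cells, fell in BPN/3J. Irf8 was at 6.87, 6.84 and 6.63 at ‘trough’ BP and at 6.01 to 6.40 (median 6.12) at ‘peak’ BP in BPN/3J, without overlap. The difference was -0.63 (SE 0.14, adjusted p 0.00549). In BPH/2J the values were 6.67, 6.57 and 6.51 at ‘trough’ BP and 6.03 to 6.79 at ‘peak’ BP, a difference of -0.22 (SE 0.14, adjusted p 0.386). Irf7 fell by 0.38 (adjusted p 0.0213) in BPN/3J, from 6.45, 5.92 and 6.08 to 5.64 to 5.84 (median 5.80), and without ‘trough’ mouse 1 its difference was -0.23 (adjusted p 0.173). In BPH/2J the difference of Irf7 was -0.12 (SE 0.11).

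**Figure D3:**
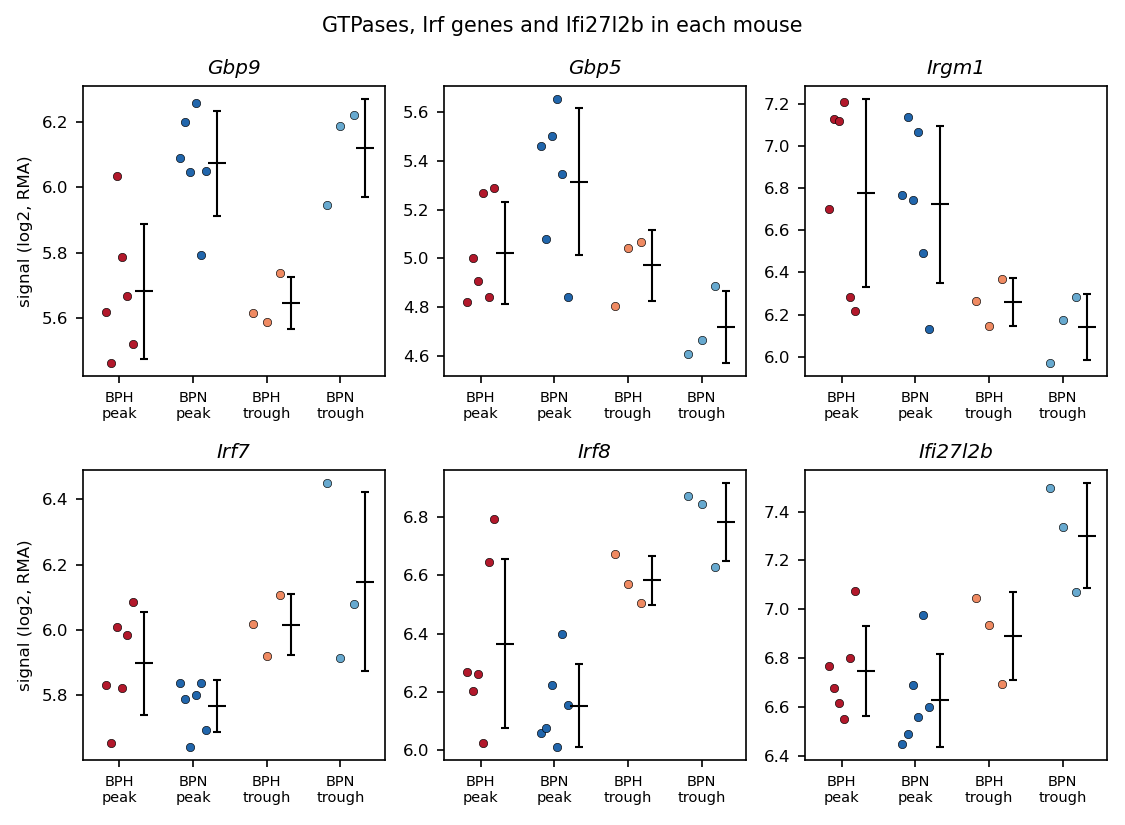
RMA signal (log2) of 6 members in each mouse (points), with the group mean and SD (black bar). The group mean of Gbp9 is lower in BPH/2J at both times, called at neither. The group means of Irf7, Irf8 and Ifi27l2b are lowest in the BPN/3J ‘peak’ mice and highest in the BPN/3J ‘trough’ mice.

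Among the other Ifi genes, Ifi27l2b and Ifi44l fell at ‘peak’ BP in BPN/3J. Ifi27l2b was at 7.50, 7.34 and 7.07 at ‘trough’ BP and at 6.45 to 6.98 (median 6.58) at ‘peak’ BP, a difference of -0.67 (SE 0.13, adjusted p 0.00294). In BPH/2J it was at 7.05, 6.94 and 6.69 at ‘trough’ BP and 6.55 to 7.08 at ‘peak’ BP, so these groups overlapped, with a difference of -0.14 (SE 0.13). Ifi44l was dim, at 4.46, 4.61 and 4.26 against 3.90 to 4.40 (median 3.98) in BPN/3J, and differed by -0.39 (SE 0.11, adjusted p 0.0183), and in BPH/2J by -0.13 (SE 0.11). BPN/3J ‘peak’ mouse 7, at 4.40, lay within the ‘trough’ range, and without ‘trough’ mouse 3 the difference was -0.30 (adjusted p 0.109).

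Ifi27, a mitochondrial protein next to Ifi27l2b on chromosome 12, had positive differences. Its ‘trough’ values were tight, at 8.01, 8.03 and 8.02 in BPN/3J and 8.26, 8.13 and 8.26 in BPH/2J. At ‘peak’ BP it ran from 7.89 to 8.71 in BPN/3J and from 8.16 to 9.05 in BPH/2J. The difference was 0.42 (SE 0.18, adjusted p 0.0887) in BPN/3J and 0.36 (SE 0.18, adjusted p 0.228) in BPH/2J, and averaged over both strains it was 0.39 (adjusted p 0.0243).

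Irf2bpl, which shares a name with interferon genes through a partner of Irf2 and is a neuronal regulator of transcription and protein turnover, had the smallest adjusted p of the 67 with time in BPN/3J. It was at 8.25, 8.15 and 8.11 at ‘trough’ BP and 7.54 to 7.96 at ‘peak’ BP in BPH/2J, and at 7.90, 8.26 and 8.32 and 7.48 to 7.77 in BPN/3J. In both strains every ‘trough’ mouse lay above every ‘peak’ mouse. The difference was -0.44 (SE 0.11, adjusted p 0.0162) in BPH/2J and -0.54 (SE 0.11, adjusted p 0.00272) in BPN/3J. The call in BPH/2J was lost without ‘trough’ mouse 1 (-0.40, adjusted p 0.0997) or 2, and that in BPN/3J held throughout.

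**Figure D4:**
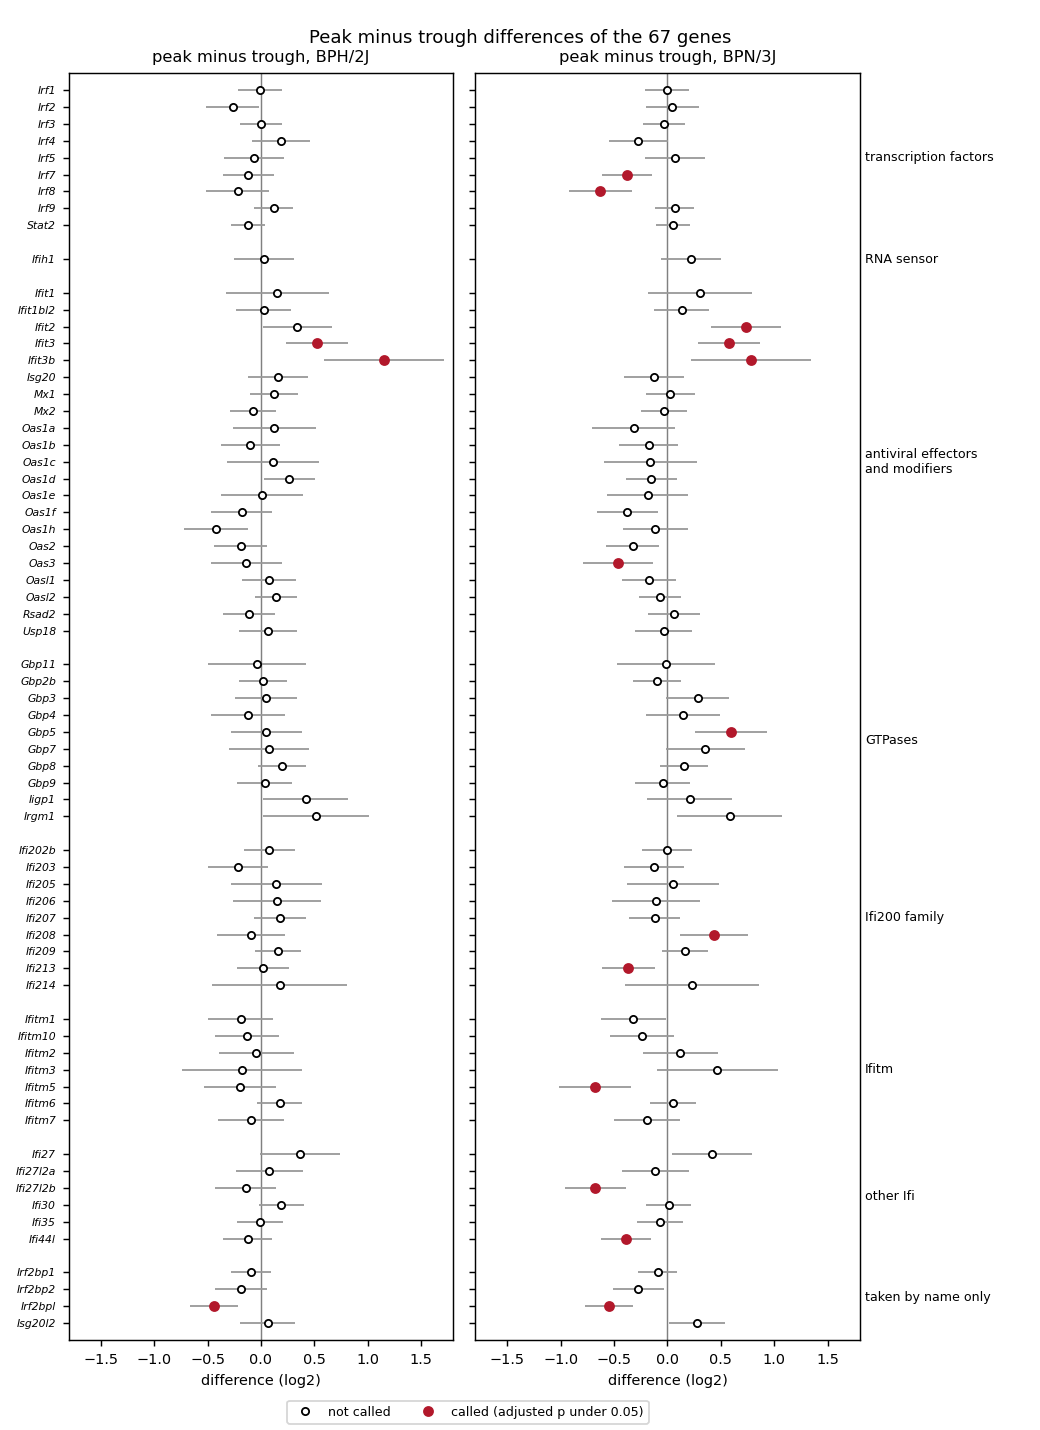
‘Peak’ minus ‘trough’ difference (log2, horizontal axis) of each of the 67 genes in BPH/2J (left) and BPN/3J (right), grouped by role, each from 6 ‘peak’ and 3 ‘trough’ mice. Circles are limma estimates, lines their 95% intervals and filled circles the called genes, 3 in BPH/2J and 13 in BPN/3J.

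The study's own question, which genes respond to time differently in the hypertensive strain, is the strain difference at ‘peak’ BP minus that at ‘trough’ BP. In limma 0 of 67 genes passed, as did 0% of all 19937 genes, with an unadjusted p under 0.05 for 7 of the 67 and for 8.23% of all genes. The values with the smallest p were Ifi27l2b at 0.53 (SE 0.19, adjusted p 0.589), Oas1d at 0.42 (SE 0.16) and Irf4 at 0.46 (SE 0.18), followed by Gbp5 at -0.54 (SE 0.22) and Ifi208 at -0.53 (SE 0.21). It follows that a call in BPN/3J beside none in BPH/2J, as for Ifit2, Irf7 and Irf8, is not a shown difference between the strains. A strain contrast and a time contrast share a group of mice, so their directions are not independent, while the time contrasts of the strains use different mice.

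Upstream of these genes, a receptor chain differed more between the strains than any of the 67. Ifngr2, the signalling chain of the interferon gamma receptor, was at 8.51 to 8.83 (median 8.70) in BPH/2J and 9.41 to 9.87 (median 9.59) in BPN/3J at ‘peak’ BP. At ‘trough’ BP it was at 8.74, 8.93 and 8.95 in BPH/2J and 9.70, 9.56 and 9.68 in BPN/3J. All 9 BPH/2J mice lay below all 9 BPN/3J mice. Probe sequences were not used here, and whether the Ifngr2 probes match both strains alike was not tested. The difference was -0.93 (SE 0.09, adjusted p 3.31e-06) at ‘peak’ BP and -0.77 (SE 0.12, adjusted p 0.00376) at ‘trough’ BP, both called with each array left out in turn.

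Il10rb, the chain shared by the interleukin 10 and lambda interferon receptors, neighbours Ifngr2 on chromosome 16, in the order Ifnar2, Il10rb, Ifnar1 and Ifngr2. At ‘peak’ BP it was at 7.29 to 7.66 in BPH/2J and 7.59 to 8.34 in BPN/3J, a difference of -0.51 (SE 0.11, adjusted p 0.0191). At ‘trough’ BP the BPN/3J values of 7.36, 7.35 and 7.66 were near the BPH/2J values of 7.51, 7.47 and 7.59. In BPN/3J Il10rb was thus higher at ‘peak’ BP, by 0.57 (SE 0.13, adjusted p 0.00653). Ifngr1 and Ifnar2 were higher as well, by 0.43 (SE 0.08, adjusted p 0.00218) and 0.42 (SE 0.11, adjusted p 0.0118), so that 3 of 9 receptor and kinase genes rose in BPN/3J, where 28.7% of all genes were called, and 0 of 9 in BPH/2J, where 10.2% were. The strain call of Il10rb was lost without BPH/2J ‘peak’ mouse 9 or BPN/3J ‘peak’ mouse 8 (-0.48, adjusted p 0.0535), and the time call of Ifnar2 without BPN/3J ‘trough’ mouse 1 (0.29, adjusted p 0.100).

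**Figure D5:**
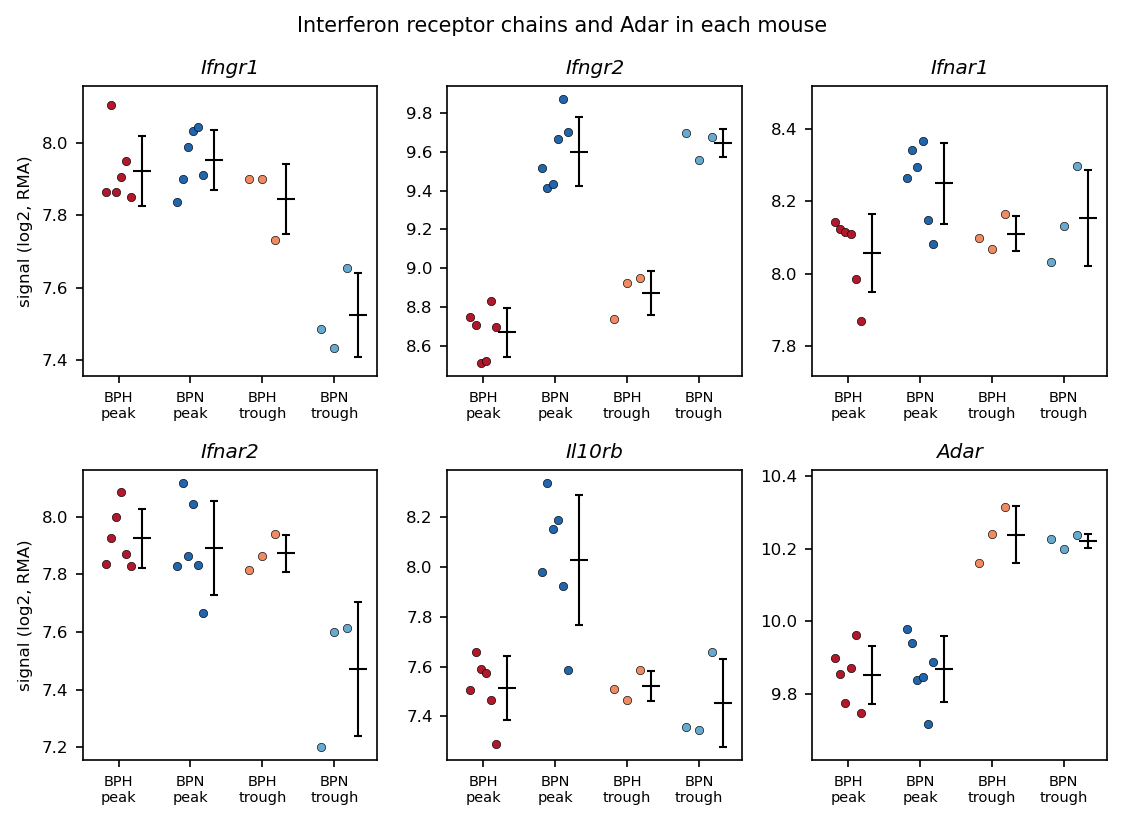
RMA signal (log2) of 5 interferon receptor chains and of Adar in each mouse (points), with the group mean and SD (black bar). Ifngr2 separates the 9 BPH/2J from the 9 BPN/3J mice at both times, and Adar separates ‘peak’ from ‘trough’ mice in both strains.

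Of 15 interferon genes measured, 4 were above the 40th percentile of signal. None was called between the strains, where 1.38% (‘peak’ BP) and 0.567% (‘trough’ BP) of all genes were. In BPN/3J 28.7% of all genes were called with time. There Ifna5 and Ifna16 fell at ‘peak’ BP by 0.77 and 0.52, with limma adjusted p of 0.0354 and 0.0461. The call of Ifna16 held in 5 of 18 fits with 1 array left out (-0.38, adjusted p 0.231 without ‘trough’ mouse 1). Ifna5 was at 8.25 in ‘trough’ mouse 1 and at 7.21 and 7.14 in the other 2, and without mouse 1 its difference was -0.42 with an adjusted p of 0.275. Among 16 sensors and adaptors, Aim2, the inflammasome sensor of DNA, rose at ‘peak’ BP in both strains, by 0.49 (SE 0.13, adjusted p 0.0268) in BPH/2J and 0.42 (SE 0.13, adjusted p 0.0279) in BPN/3J. It was lost without any 1 of the 3 BPH/2J ‘trough’ mice (0.47, adjusted p 0.119 without mouse 1) and in BPN/3J without ‘trough’ mouse 3 (0.38, adjusted p 0.107) or 4. In BPN/3J Tbk1, the kinase that activates Irf3, rose by 0.36, while Tlr9 and Dhx58 fell by 0.55 and 0.38. With 1 array left out these calls held in 17, 16 and 16 of 18 fits. The largest limma adjusted p were 0.0519 for Tbk1 without ‘trough’ mouse 3, and 0.0916 for Tlr9 and 0.122 for Dhx58 without ‘trough’ mouse 1. In all 2 of the 16 rose and 4 fell in BPN/3J, beside 28.7% of all genes called. In BPH/2J 1 rose and 0 fell, beside 10.2% of all genes.

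Adar, one of 12 negative regulators of the pathway measured and the RNA editor that keeps cellular double-stranded RNA from setting off the sensors, was at 10.16, 10.24 and 10.32 in BPH/2J and 10.23, 10.20 and 10.24 in BPN/3J at ‘trough’ BP, above all ‘peak’ mice at 9.72 to 9.98. It differed by -0.39 (SE 0.07, adjusted p 0.00402) and -0.35 (SE 0.07, adjusted p 0.00375), and these calls held with each array left out in turn. Of the 12 regulators 0 rose and 2 fell in BPH/2J (Adar and Ptpn11), and 1 rose (Ptpn2) and 4 fell in BPN/3J, among them Socs3 by 0.51 and Ptpn6 by 0.29. Among all genes 10.2% and 28.7% were called, also with more lower than higher (1118 against 923 in BPH/2J and 2938 against 2776 in BPN/3J). The call of Ptpn11 held in 12 of 18 fits with 1 array left out, and was -0.30 (adjusted p 0.132) without BPH/2J ‘trough’ mouse 3. In BPN/3J the calls of Socs3, Ptpn6 and Ptpn2 each held in 16 of 18 such fits. Without ‘trough’ mouse 3 the adjusted p was 0.0802 for Socs3 and 0.104 for Ptpn6, and without mouse 1 it was 0.101 for Ptpn2. The 12 had a median time difference of -0.10 in BPH/2J, and of -0.20 in BPN/3J, against -0.02 and -0.04 for all genes.

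Of 40 other interferon-induced genes, among them Gbp2b, which is also one of the 67, 0 were called between the strains at either time. Of all genes 1.38% were called at ‘peak’ BP and 0.567% at ‘trough’ BP. Averaged over both times 1 of the 40 was called, higher in BPH/2J, beside 1.93% of all genes. The largest strain differences of the 40 were those of Eif2ak2, at 0.37 at ‘peak’ BP, 0.63 at ‘trough’ BP and 0.50 averaged. With time 1 of the 40 rose and 0 fell in BPH/2J, under the 10.2% called among all genes. In BPN/3J 7 rose and 4 fell, near the 28.7% of all genes. Psme1, a proteasome activator subunit, rose in both strains, by 0.54 (SE 0.12, adjusted p 0.00803) and 0.53 (SE 0.12, adjusted p 0.00453). The immunoproteasome subunit Psmb9 fell in BPN/3J by 0.49, Parp10 by 0.53 and Uba7, the activating enzyme for Isg15, by 0.45. With 1 array left out the calls of Psmb9 and Uba7 each held in 17 of 18 fits, and that of Parp10 in all. Without ‘trough’ mouse 1 the limma adjusted p was 0.0574 for Psmb9 and 0.0819 for Uba7. The BPH/2J call of Psme1 also held in 17, with an adjusted p of 0.0504 without ‘trough’ mouse 2.

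Cell type markers moved in the same comparisons, and their part in the results was not tested. In bulk tissue fewer cells of a type and less RNA per cell cannot be told apart. Between the strains at ‘peak’ BP, where 1.38% of all genes were called, 2 of 16 microglia and macrophage markers were called and in opposite directions. C1qc was at -0.54 (SE 0.09) and Tyrobp at 0.51 (SE 0.09). The mean signal of the 16 overlapped between BPH/2J (7.08 to 7.26) and BPN/3J (6.93 to 7.21). With time in BPN/3J, where 28.7% of all genes were called, 2 of these markers rose and 3 fell, 5 of 11 lymphocyte markers fell, and 4 of 7 pituitary markers fell. Lymphocyte markers were mostly dim, with 3 of 11 above the 40th percentile of signal.

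In BPH/2J, where 10.2% of all genes were called with time, 2 microglia markers rose and 2 fell. Markers of the vessel wall and meninges were lower there at ‘peak’ BP: 3 of 8 pericyte and smooth muscle markers fell (median difference of the 8 -0.58), as did 2 of 8 meningeal fibroblast markers (median -0.57, all 8 negative). Of 9 endothelial markers 1 rose and 3 fell (median -0.38). The mean signal of the pericyte list was 7.03 to 7.47 in BPH/2J ‘peak’ mice and 7.55 to 7.76 in BPH/2J ‘trough’ mice, without overlap, and that of the fibroblast list was 6.82 to 7.59 and 7.37 to 7.65. In BPN/3J the pericyte list ran from 7.01 to 7.63 and from 7.27 to 7.55. There 1 of its markers rose and 2 fell, and 2 fibroblast markers fell, where 28.7% of all genes were called. Between the strains 1 of the 9 endothelial markers was called at each time, higher in BPH/2J. Of all genes 1.38% were called at ‘peak’ BP and 0.567% at ‘trough’ BP.

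Of the pituitary markers that fell, Lhb was at 6.95, 6.98 and 6.83 and Pitx1 at 6.80, 6.71 and 6.43 in the 3 BPN/3J ‘trough’ mice, so both were high in all 3, while Gh and Prl stood out in 1. Growth hormone (Gh) was at 12.4 in BPN/3J ‘trough’ mouse 3, at 6.83 and 7.44 in the other 2 BPN/3J ‘trough’ mice and at 5.49 to 8.01 in all other mice. Without that mouse 8 rather than 13 of the 67 genes were called with time in BPN/3J. Without ‘trough’ mouse 1, whose array stood apart, 5 were called: Ifit2 at 0.63 and Ifit3 at 0.61, higher at ‘peak’ BP, and Irf2bpl at -0.67, Irf8 at -0.58 and Ifi27l2b at -0.58. In BPH/2J the count fell from 3 to 0 without ‘trough’ mouse 1, where the difference of Ifit3b was 1.08 (adjusted p 0.0772). With only the higher-numbered ‘peak’ mice (BPH/2J 8 and 9, BPN/3J 10 and 11), a choice made after the values were seen, 0 genes were called between the strains at ‘peak’ BP, 0 with time in BPH/2J and 2 with time in BPN/3J, and with only the lower-numbered ones 9 and 22 were called with time.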

How the data were processed

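RNA from the hypothalamus of each of 18 male mice was measured on its own Affymetrix Mouse Gene 1.0 ST array. The authors deposited RMA-normalized log2 values for 34760 probesets. Scanner files were not used here, so the depth of each array and the background of each probe are unknown, and the number of arrays limits the precision. RMA scales the arrays to each other, so a shift shared by all genes may not be seen. The deposited arrays still differed in their median, from 6.17 in BPH/2J ‘peak’ mouse 5 to 6.42 in BPN/3J ‘trough’ mouse 1. The other 2 BPN/3J ‘trough’ arrays had medians of 6.38 and 6.29. With each array centred on its median, 0 rather than 2 of the 67 genes were called between the strains at ‘peak’ BP. With time in BPN/3J 9 rather than 13 were called.

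Groups follow the sample titles. A 4-group linear model was fitted in limma 3.58.1 (R 4.3.3) with 14 residual degrees of freedom, with moderated SEs, no filter on low signal and Benjamini-Hochberg adjustment over all probesets. Averages over both times and over both strains were added after seeing the data. The script was tested on simulated data first. Probesets were named from the platform annotation (21640 with 1 symbol, 1321 with several, 11799 not listed). All 67 genes matched RefSeq by gene ID. The members, lists and named genes were chosen with earlier results of these data known. Named genes were every called member, the 3 with the smallest p in each comparison and a short list of well-known interferon genes, and from each other list up to 4 called genes per comparison. Ifit1bl2 was named as a neighbour after its values were seen. Sources do not state that probes avoid sequence that differs between the strains. Mice are separate animals, and each p-value sets a difference of group means against the spread between mice within the groups.

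Alternatives were leaving out each array, leaving out both poorly correlated arrays, array weights, other scalings, trend and robust variances, fits of the compared groups only, lower- or higher-numbered ‘peak’ mice only, and a replicate block.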

Additional observations from a re-analysis of the deposited data

Results flagged for a closer look

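Of 66 groups of 6 mice tested, 3 held a mouse far from the other 5, and chance alone flags about 1 group in 20. For Ifi213 in BPN/3J ‘peak’ mice, mouse 8 was lowest at 3.72 against 4.15 to 4.30, a gap of 0.742 of the group's range. For Ifi27 in BPN/3J ‘peak’ mice, mouse 11 was lowest at 7.89 against 8.47 to 8.71, a gap of 0.705 of the range. For Rsad2 in BPN/3J ‘peak’ mice, mouse 7 was highest at 5.61 against 5.11 to 5.27, a gap of 0.694 of the range.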

How the results depend on the processing

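Of 74 differences recomputed under the alternatives (2171 values), 1874 stayed on the same side of the threshold with the same direction, 255 lost a call, 30 gained one and 12 reversed. Of the 67 genes, 2 were called between the strains at ‘peak’ BP, and 0 were under median centring, with the compared groups only, with higher-numbered ‘peak’ mice only, without both poorly correlated arrays, with a replicate block and with the same 12 arrays without the block. A trend with robust variance gave 1. Strain calls averaged over both times (2) fell to 1 under median centring or quantile scaling and to 0 with higher-numbered ‘peak’ mice only, the replicate block or its 12 arrays unblocked. The deviations of same-numbered mice had correlations from -0.296 to 0.194, and so few pairs cannot show whether the numbers pair mice. Time calls in BPN/3J (13) were 7 with the compared groups only or without both poorly correlated arrays, 2 with higher-numbered and 22 with lower-numbered ‘peak’ mice. In BPH/2J (3) these were 0 and 9, and averaged over strains (16) higher-numbered mice gave 4. Array weights gave 5 and 17 strain calls (‘peak’ and ‘trough’ BP), 11 and 33 time calls (BPH/2J and BPN/3J), 2 for the difference between the time effects, and 11 and 32 for the averages over times and strains. They gave BPN/3J ‘trough’ mouse 3, the array with high pituitary hormones, a weight of 9.44, the largest of the 18. A 1.5-fold adjusted difference with no test took 1 gene, Ifitm3. The causes were not tested.

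Leaving out 1 array gave 0 to 2 strain calls at ‘peak’ BP, 0 at ‘trough’ BP and 2 to 3 averaged over both times. It gave 0 to 4 time calls in BPH/2J, 5 to 16 in BPN/3J and 9 to 18 averaged over strains, and 0 for the difference between the time effects. With higher-numbered ‘peak’ mice only, the BPH/2J time differences reversed to 0.13 for Oas3, -0.00894 for Irgm1, 0.0694 for Ifitm5, 0.0196 for Irf7, 0.14 for Irf8, 0.0463 for Ifi27l2b and -0.0019 for Ifi27. None of these was called in either direction in BPH/2J. The strain difference of Ifit2 at ‘peak’ BP, 0.04 and not called, became -0.0478 with the replicate block and with the same 12 arrays unblocked, and -0.0532 without both poorly correlated arrays. With 1 array left out it ran from -0.0532 (without BPN/3J ‘peak’ mouse 11) to 0.101, and was -0.0172 without BPH/2J ‘peak’ mouse 7.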

Other observations

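The 7 probesets with several symbols, left out of the counts, held 1 call, lower at ‘peak’ BP in BPN/3J, where their differences ran from -0.58 to 0.29. In the time difference averaged over both strains 1 was higher and 1 lower, and in the strain comparisons, the time comparison in BPH/2J and the difference between the time effects 0 of 7 were called by limma.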
